A study of Homo sapiens with 2 samples.

Results

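Kinesins are motor proteins that walk along microtubules with energy from ATP, and the genes described here are those with a KIF or KIFC symbol together with KIFAP3, which encodes the accessory subunit of kinesin-2. They were picked by symbol alone, with antisense genes and pseudogenes left out. This gave 43 genes of the 28561 named genes that could be read in both libraries. Most kinesins carry cargo toward the plus ends of microtubules, kinesin-14 motors move toward the minus ends, and kinesin-13 and kinesin-8 motors shorten microtubules at their tips. In a dividing cell, mitotic kinesins separate the spindle poles, align the chromosomes and build the midzone from which the daughter cells part, and many of them are transcribed mainly in G2 and mitosis.

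Poly(A) RNA was sequenced from G1S-CCPM-Cas9 cells, recombinant U2OS cells of human bone osteosarcoma origin. The line carries a marker of cell cycle phase, and it makes the nuclease Cas9 stably from a CAG promoter (1 label spells it G1S-CCMP-Cas9). There were 2 untreated replicates in 1 group, and no contrast between conditions could be made. Nothing in the labels tells if they were grown separately, so their spread can be technical.

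Each level is an FPKM (fragments per kilobase of transcript after scaling for sequencing depth), so levels can be compared between genes of different length. A gene was called detected at FPKM 1 or more in both libraries. Absolute depth is unknown, and coverage per FPKM was 5.78 in replicate 1 and 5.57 in replicate 2. Markers of bone were partly present, with 5 of 9 detected. COL1A1 (69.2 and 82.6) and SPARC (312 and 297) were high. RUNX2 (2.25 and 3.03), ALPL (2.41 and 1.76) and SPP1 (2.00 and 1.67) were low. SP7 and COL1A2 were under FPKM 1, and IBSP and BGLAP were listed at 0. BGLAP lay in a locus of several genes in at least 1 library, where its value was that of its own transcripts. None of the 4 haematopoietic or 2 endothelial markers was detected, and 2 of 3 epithelial markers were, EPCAM at 11.98 and 13.8 and CDH1 at 2.36 and 1.17. The proliferation markers MKI67 (51.0 and 80.2) and TOP2A (131 and 163) were high in both libraries.

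Of the 43 kinesins 31 were detected in both libraries, KIF5A reached FPKM 1 in replicate 2 only, and 11 were under 1 in both. The same rule held for 41.2% of all named genes and for 59.1% of protein-coding genes. The median level of the 31 detected kinesins was 12.9, beside 11.8 for all detected genes, and 18 of the 31 lay above that median. Summed over the family, kinesins came to an FPKM of 699 in replicate 1 and 722 in replicate 2.

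Kinesins of mitosis and cytokinesis made up more of that sum than all other kinesins together. They held 59.99% of it in replicate 1 and 59.6% in replicate 2, and 12 of the 14 were detected, with a median of 23.9. Group medians in this paragraph are over all members of a group, detected or not, unless stated. Cargo transport kinesins held 33.5% and 33.3%, with 12 of 15 detected and a median of 10.4. Kinesins of cilia and Hedgehog signalling held 1.94% and 2.04%, with 4 of 7 detected and a median of 1.48. The kinesin-2 genes KIF3A, KIF3B, KIF3C and KIFAP3 were counted under cargo transport, although kinesin-2 also serves cilia. The 7 kinesins that set microtubule dynamics or have other roles held 4.56% and 5.05%, with 3 detected and a median of 0.870. Over the detected members alone the medians of these role groups were 29.2, 12.1, 3.42 and 8.40, in the order given. In these bulk samples, fewer cells in a phase of the cycle and less RNA per cell cannot be told apart.

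**Figure D1:**
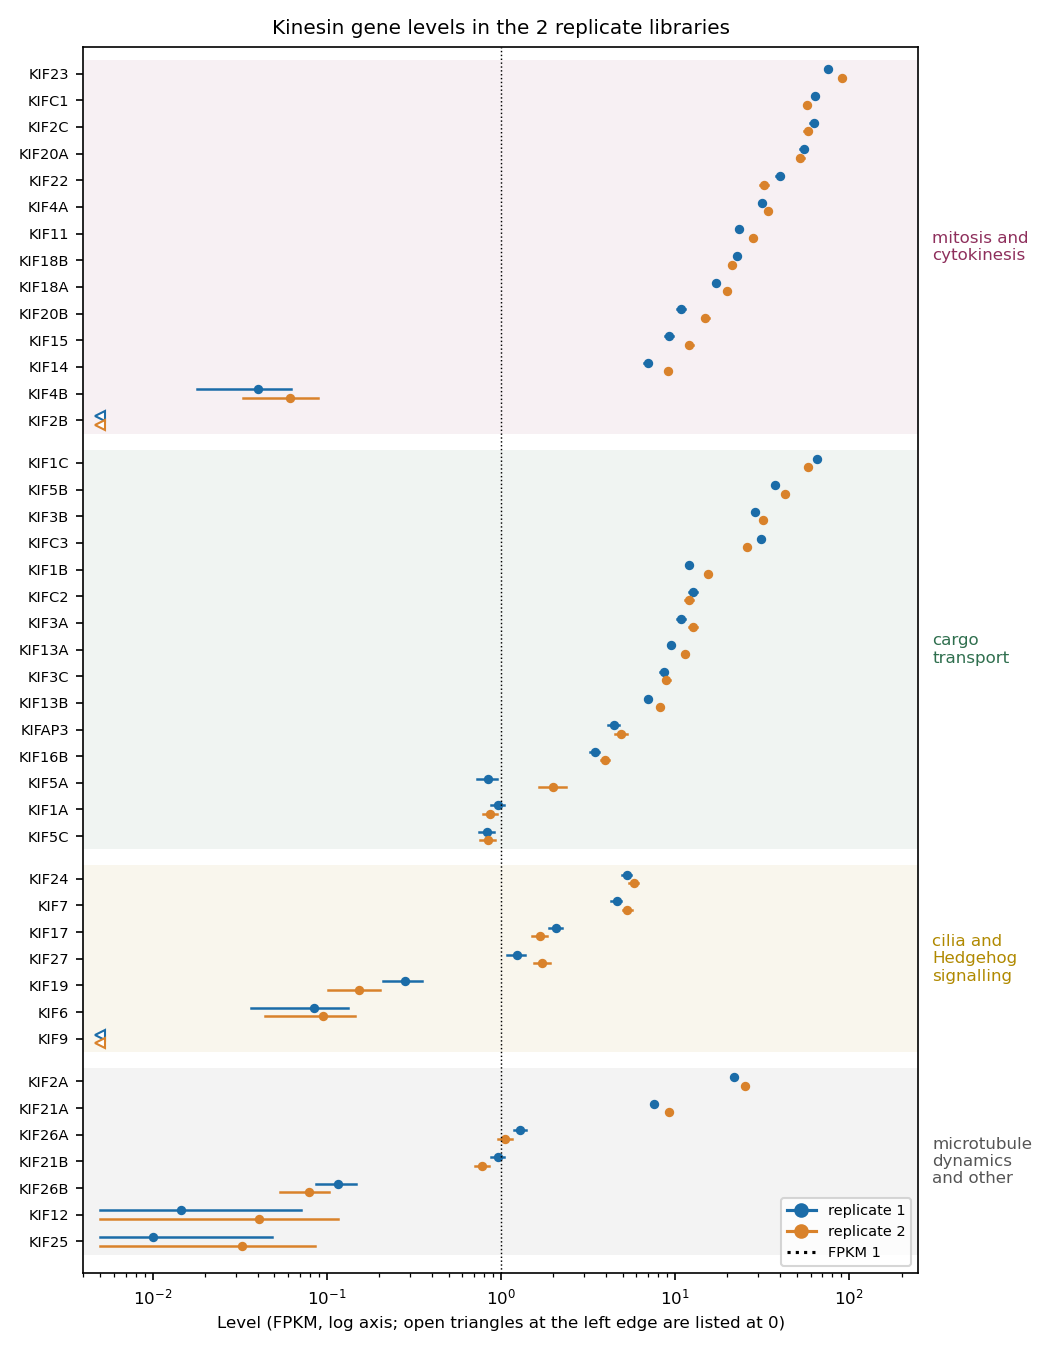
Level of each kinesin gene (FPKM, log axis) in replicate 1 and replicate 2, grouped by role; lines are the deposited confidence bounds, the dotted line marks FPKM 1, and open triangles mark genes listed at 0. The 12 detected mitotic genes sit between 6.98 and 91.5, while KIF4B and KIF2B lie apart at the low end.

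The 5 highest kinesins were KIF23, KIF1C, KIFC1, KIF2C and KIF20A, and 4 of them act in cell division. KIF23, the motor of the centralspindlin complex that organises the midzone, was at 75.8 in replicate 1 and 91.5 in replicate 2, a mean of 83.7 ± 11.1 (SD, n = 2 for all values given this way; GRCh38 chromosome 15, 69414246 to 69448427). Both of its values were above those of every other kinesin. KIFC1, a minus-end motor that gathers spindle poles, was at 64.1 and 57.1 (60.6 ± 4.93). KIF2C, the centromeric depolymerase known as MCAK that corrects faulty chromosome attachments, was at 62.7 and 57.7 (60.2 ± 3.49). KIF20A, a kinesin-6 motor that brings the chromosomal passenger complex to the midzone, was at 55.0 and 52.4 (53.7 ± 1.81). KIFC1 and KIF2C overlapped, and KIF2C stood above KIF20A in both libraries.

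A middle group of mitotic genes followed. The chromokinesins, which bind chromosome arms and push them toward the spindle equator, were at 39.9 and 32.5 for KIF22 (36.2 ± 5.22) and 31.4 and 34.1 for KIF4A (32.8 ± 1.93). Their ranges overlapped, so their order is not resolved. KIF11, the tetrameric motor known as Eg5 that pushes the spindle poles apart, was at 23.4 and 28.0 (25.7 ± 3.26). KIF15, which can take over part of that work, was at 9.24 and 12.1 (10.7 ± 2.02). KIF11 was thus 2.54 times as high as KIF15 in replicate 1 and 2.32 times as high in replicate 2. The kinesin-8 motors, which limit the growth of microtubule plus ends, were close to each other, with KIF18B at 22.7 and 21.2 (22.0 ± 1.05) and KIF18A at 17.3 and 19.8 (18.5 ± 1.77). KIF18B was above KIF18A by 1.31-fold in replicate 1 and 1.07-fold in replicate 2.

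The remaining detected mitotic kinesins, KIF20B and KIF14, act in cytokinesis. KIF20B, a kinesin-6 motor, was above KIF15 in both libraries, at 10.8 and 14.9 (12.9 ± 2.88), so that KIF20A was 5.08 and 3.52 times as high. KIF14, which works with citron kinase at the midbody, was at 6.98 and 9.09 (8.04 ± 1.497), the lowest detected mitotic kinesin in each library. In replicate 1 a transcript assembled by Cufflinks held 25.2% of the KIF14 level, and in replicate 2 no assembled transcript did. No detected mitotic kinesin other than KIF14 had an assembled transcript in either library.

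KIF4A and KIF4B lie at opposite ends of the list although their products are close relatives. KIF4B is an intronless copy: its transcript has 1 exon and a reading frame of 1234 codons, whereas KIF4A has 31 exons and 1232 codons. KIF4A (GRCh38 chromosome X, 70290029 to 70420924) was 779 times as high as KIF4B (chromosome 5, 155013700 to 155018125) in replicate 1 and 558 times in replicate 2. KIF4B itself was at 0.0403 and 0.0612. Of the 50-base stretches of the KIF4B transcript, 13.999% also occur in KIF4A, beside 34.9% of the 25-base and 4.53% of the 75-base stretches. Some reads may thus fit both genes, depending on read length, and the low KIF4B values are uncertain. KIF2B, a depolymerase related to KIF2A and KIF2C, was listed at 0 in both libraries.

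The promoters of most mitotic kinesins held a pair of motifs that the other role groups mostly lacked. The windows run from 250 bases before to 50 bases after each RefSeq gene start (GRCh38.p14), and 35 of the 43 kinesins matched. Missing were KIF5A, KIF13B, KIF19, KIF21B, KIF26B, KIF27, KIFC2 and KIFC3. The motifs searched on both strands were TTTGAA, the core of the cell cycle genes homology region at which the DREAM and MuvB complexes bind many G2 and mitosis genes, and CCAAT, the box bound by NF-Y. No match of one overlapped a match of the other in the kinesin windows, and a gene with several windows counted once. TTTGAA was present in 10 of 14 mitotic kinesins (71.4%), in 1 of 21 other kinesins (4.76%) and in 18.2% of all 27305 genes. CCAAT was present in 11 of 14 mitotic kinesins (78.6%), in 7 of 21 other kinesins (33.3%) and in 39.7% of all genes. Both motifs occurred in 9 of 14 mitotic kinesins (64.3%), in KIF5B alone among the 21 others, and in 7.26% of all genes. Among 9250 detected protein-coding genes, both occurred in 5.62%. A match is a description of letters, not a shown binding site.

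The 100 bases before the start of 5 mitotic kinesins show different arrangements, with both motifs in capitals in either orientation. TTTGAA matches after the start, as in KIFC1, KIF14, KIF18B, KIF20B and KIF4B, fall outside these 100 bases. KIF11, KIF18A and KIF23 hold both, KIF15 holds TTTGAA without a CCAAT box, and KIF20A holds a pair of CCAAT boxes and no TTTGAA. They were taken from chr10:92593030-92593129 (plus strand), chr11:28108157-28108256 (minus), chr15:69414249-69414348 (plus), chr3:44761694-44761793 (plus) and chr5:138179012-138179111 (plus), in the order printed.
KIF11: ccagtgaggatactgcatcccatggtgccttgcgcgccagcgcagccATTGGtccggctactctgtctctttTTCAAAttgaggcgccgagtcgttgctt
KIF18A: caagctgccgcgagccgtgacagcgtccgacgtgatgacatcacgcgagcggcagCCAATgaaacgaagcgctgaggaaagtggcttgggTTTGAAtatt
KIF23: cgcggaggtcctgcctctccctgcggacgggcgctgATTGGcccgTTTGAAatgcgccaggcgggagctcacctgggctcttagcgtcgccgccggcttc
KIF15: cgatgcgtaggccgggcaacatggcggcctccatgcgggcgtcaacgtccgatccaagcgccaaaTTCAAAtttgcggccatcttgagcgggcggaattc
KIF20A: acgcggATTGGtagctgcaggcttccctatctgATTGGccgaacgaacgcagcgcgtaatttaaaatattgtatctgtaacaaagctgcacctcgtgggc

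In 9 mitotic kinesins with both motifs, a CCAAT box lay upstream of TTTGAA. The first base of the box was at -53 and that of TTTGAA at -28 in KIF11, at -45 and -10 in KIF18A, and at -64 and -55 in KIF23. Positions count from the RefSeq gene start, with -1 the base before it, and other annotations can place that start elsewhere. A GENCODE 29 transcript of the gene started within 50 bases of the RefSeq start in 34 of 44 kinesin windows and in 12 of 15 mitotic ones. The nearest GENCODE start lay 156 bases downstream for KIF11, 68 for KIF15 and 62 for KIF18B. In 18 of the 44 windows the transcribed end was not found as a whole in a GENCODE transcript of the gene. In KIFC1, KIF14, KIF18B and KIF20B the TTTGAA match lay just after the start, at 5, 2, 3 and 25, with a further match at 31 in KIF20B. The mitotic kinesins without TTTGAA in the window were KIF2B, KIF2C, KIF20A and KIF22. KIF2C, KIF20A and KIF22 were among the 5 highest mitotic kinesins, and KIF2B was listed at 0.

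KIF4B kept the motif pair of KIF4A despite its different level. The stretch from the CCAAT box to TTTGAA is 30 bases in each gene and identical at 27 of them (chrX:70290046-70290075 for KIF4A and chr5:155013734-155013763 for KIF4B, plus strand). Before the KIF4A start it runs from -58 to -29, and in KIF4B it spans the annotated start, from -21 to 9.
KIF4A: ATTGGttggcgtctccgggacggaTTTGAA
KIF4B: ATTGGttggtgtctctgggagggaTTTGAA

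**Figure D2:**
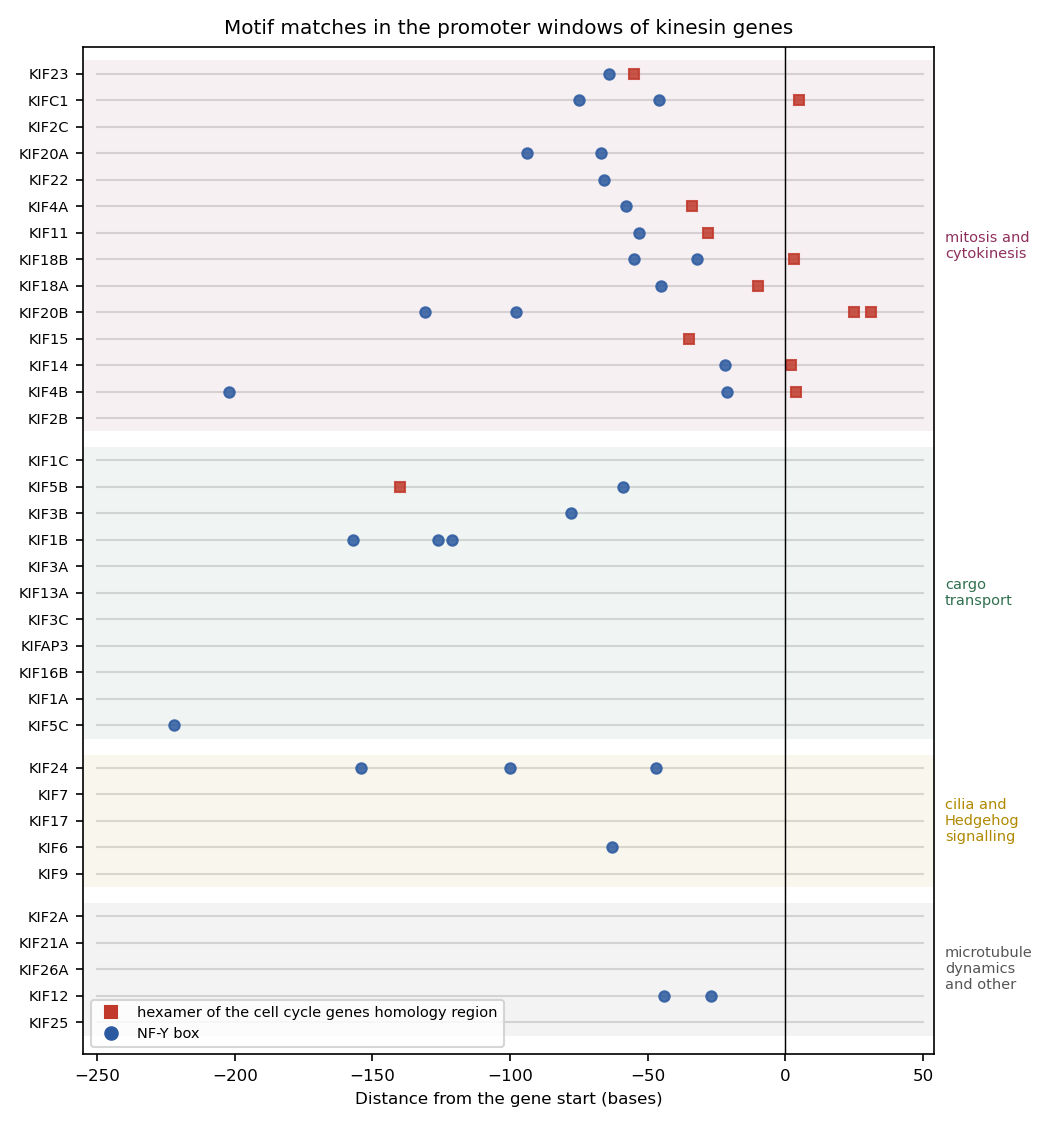
Position of the first base of each motif match in the promoter windows of 35 kinesin genes, as distance from the RefSeq gene start in bases; squares are the hexamer of the cell cycle genes homology region and circles the NF-Y box, and windows of a gene with several starts share a line. Squares occur in 10 of the 14 mitotic genes and in KIF5B among the others.

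Among the cargo motors, the kinesin-1 heavy chains were led by KIF5B. KIF5B (GRCh38 chromosome 10, 32009010 to 32056443), the heavy chain found in most cell types, was at 37.6 and 43.0 (40.3 ± 3.80). KIF5C, best known from neurons, was at 0.834 and 0.844, so KIF5B was 45.1 times as high in replicate 1 and 51.0 times in replicate 2. KIF5A, also a neuronal heavy chain, was at 0.838 and 2.00, and it is described with the differences between the libraries. All 4 light chains, which join kinesin-1 to its cargo, were detected, KLC2 at 28.7 and 24.9, KLC1 at 19.99 and 22.7, KLC3 at 9.56 and 7.61 and KLC4 at 8.67 and 7.08. KIF5B was above each light chain in both libraries.

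The kinesin-3 family carries vesicles and organelles. KIF1C, which moves vesicles and integrins and is broadly expressed, was at 65.6 and 58.1 (61.9 ± 5.30), the highest cargo motor in each library. KIF1B was at 12.01 and 15.5 (13.8 ± 2.48), and KIF1C was 5.47 and 3.75 times as high. KIF1A, a motor of synaptic vesicle precursors, was at 0.966 and 0.868. KIF13A, a motor of recycling endosomes, was at 9.45 and 11.4 (10.4 ± 1.41), KIF13B at 7.01 and 8.23 (7.62 ± 0.862), and KIF16B, which binds early endosomes, at 3.45 and 3.97 (3.71 ± 0.369). By locus level KIF13A exceeded KIF13B by 1.35-fold and 1.39-fold, and KIF13B exceeded KIF16B in both libraries. By reference transcripts alone the order of KIF13A and KIF13B turned round, with KIF13A at 4.07 and 4.38 and KIF13B at 7.01 and 8.23.

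The RNAs of the subunits of kinesin-2, a motor that drives intraflagellar transport and also moves endosomes, were present at unequal levels. KIF3B was at 28.7 and 31.9 (30.3 ± 2.28), its motor partner KIF3A at 10.9 and 12.7 (11.8 ± 1.33) and the accessory subunit KIFAP3 at 4.45 and 4.90 (4.67 ± 0.316). KIF3B was 2.64 and 2.51 times as high as KIF3A, and KIF3A 2.44 and 2.60 times as high as KIFAP3. KIF3C, which can pair with KIF3A, was at 8.62 and 8.92 (8.77 ± 0.209), below KIF3A in both libraries. The remaining cargo genes are minus-end motors of kinesin-14. KIFC3 was at 31.2 and 26.0 (28.6 ± 3.69), and KIFC2 was at 12.7 and 12.1 (12.4 ± 0.391).

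The 7 kinesins grouped under cilia and Hedgehog signalling were low throughout. This holds for the group as drawn here, since KIF3A, KIF3B and KIFAP3 of intraflagellar transport were counted under cargo transport. KIF24, which restrains cilium growth with CP110, was at 5.27 and 5.79 (5.53 ± 0.374), and KIF7, a regulator of GLI factors at the cilium tip, was at 4.62 and 5.32 (4.97 ± 0.497). Their ranges overlapped. KIF17, a homodimeric kinesin-2, was at 2.07 and 1.67 (1.87 ± 0.281), and KIF27, a relative of KIF7, was at 1.23 and 1.73 (1.48 ± 0.353). The KIF27 reference transcripts summed to 0.481 and 1.34, so its detection in replicate 1 rested on assembled transcripts. KIF6 and KIF19, both tied to cilia in mice, were at 0.0846 and 0.0948 and at 0.281 and 0.153. KIF9, a gene of motile cilia and sperm tails in mice, was listed at 0 in both libraries (chromosome 3, 47228026 to 47282847). Its span overlaps the expressed gene KLHL18, and whether a locus of overlapping genes was estimated fully was not tested.

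In the last role group KIF2A and KIF21A were above FPKM 5 in both libraries. KIF2A, a depolymerase that acts at spindle poles and in neurons, was at 21.9 and 25.3 (23.6 ± 2.41), and KIF2C was 2.87 and 2.28 times as high. KIF21A, which slows microtubule growth at the cell cortex, was at 7.58 and 9.23 (8.40 ± 1.17), while its relative KIF21B was at 0.960 and 0.779. KIF26A, a kinesin without ATPase activity, was at 1.30 and 1.06 (1.18 ± 0.169), just above the detection level in both libraries, and KIF26B was at 0.116 and 0.0787. KIF12 (0.0146 and 0.0409) and KIF25 (0.0100 and 0.0326) were near 0.

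Along the order of mean levels, few neighbours were separated. Of 42 pairs of neighbours, 14 had both values of the upper gene above both values of the lower, and of 30 pairs among the detected genes 9 did. Among the detected genes these steps came after KIF23, KIF2C, KIF20A, KIF18B, KIF18A, KIF13A, KIF13B, KIFAP3 and KIF16B. The steps rest on locus levels. By reference transcripts alone KIF13A (4.07 and 4.38) lay below KIF3C (8.62 and 8.92), the next gene in the order. Between these steps the order of neighbours is not resolved, as for the run from KIF5B through KIF22, KIF4A, KIF3B, KIFC3, KIF11 and KIF2A to KIF18B. Across the 31 detected kinesins, log2(FPKM + 1) correlated between the libraries with Pearson r = 0.991 and Spearman rho = 0.990 (across genes, and genes of 1 library are not independent). The spans of 7 kinesins overlapped an expressed named gene: KIF20A with CDC23, KIF2A with DIMT1, KIF1B with MIR1273D, KIFC2 with FOXH1, KIF24 with UBAP1, KIF7 with TICRR and KIF9 with KLHL18. Reads in such shared stretches may be counted for either gene, so these levels are less certain. Loci without a gene name also overlapped some kinesin spans, among them 4 in replicate 1 and 15 in replicate 2 for KIF18B.

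A list of 4 kinesin light chains, 2 kinesins without a KIF symbol, 8 direct partners and 5 dynein subunits was detected throughout. By the same rule 59.1% of protein-coding genes were detected, and the list was chosen with earlier results of these data known. CENPE, the kinetochore kinesin without a KIF symbol, was at 15.1 and 23.0, and the centrosomal kinesin STARD9 was at 1.24 and 1.47. TPX2, which binds KIF11 and directs it to the spindle, was at 142 and 145, above every kinesin. RACGAP1, the partner of KIF23 in centralspindlin, was at 58.9 and 57.9, below KIF23 in both libraries, and PRC1, which bundles midzone microtubules and recruits KIF4A, was at 61.8 and 59.4. KIFBP, which binds and inhibits several motors, was at 19.1 and 19.8. The cargo adaptors ranged from MAPK8IP3 (4.58 and 5.17) and TRAK2 (7.80 and 8.74) to TRAK1 (15.7 and 16.6) and MAPK8IP1 (21.1 and 14.8). For cytoplasmic dynein, the main minus-end motor, the heavy chain DYNC1H1 was at 29.6 and 43.3 and the intermediate chain DYNC1I2 at 39.9 and 43.2. The intermediate chain DYNC1I1 was at 1.65 and 1.25, and the light intermediate chains were at 26.6 and 25.5 for DYNC1LI1 and 25.6 and 31.8 for DYNC1LI2.

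Transcript estimates showed which forms of each kinesin carried its level. Of the 31 detected genes 24 had at least 2 reference transcripts and 7 had 1 (KIF3B, KIF4A, KIF5B, KIF11, KIF14, KIF18A and KIF26A). In 23 of the 24 the same reference transcript was highest in both libraries. In 10 a second one held 20% or more of the summed reference transcripts in both libraries. Transcripts of a gene share most of their bases, so these estimates are less certain than the gene level.

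KIF23 was split among 3 reference transcripts, and a curated form with a large alternative exon was listed at 0. The predicted models of 3400 and 2153 bases were at 32.0 and 32.7 and at 22.0 and 30.9, and the curated transcript of 3411 bases, the MKLP1 form, was at 21.8 and 27.9. The transcript of 3723 bases, the CHO1 form, has 1 more exon (23 against 22) and 960 codons against 856. It was at 0 in both libraries, with upper confidence bounds of 0.00744 and 0.00773. Whether the predicted models hold the added exon was not checked, so its absence from the RNA is not shown. The 312 bases that tell the CHO1 form from the MKLP1 form lie at chr15:69440768-69441079 (plus strand). The first 150 of them are given because the CHO1 form was listed at 0.
KIF23 alternative exon: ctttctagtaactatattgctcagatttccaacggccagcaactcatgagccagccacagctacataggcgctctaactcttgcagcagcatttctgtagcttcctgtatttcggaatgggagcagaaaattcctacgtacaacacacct

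KIF1B makes motors with different cargo-binding tails, and both were measured. The alpha form, known to carry mitochondria, has 21 exons and 1153 codons and was at 7.51 and 9.63. The beta form, known to carry synaptic vesicle precursors, has 47 exons and 1770 codons and was at 4.496 and 5.89. Beta held 37.4% of the summed level in replicate 1 and 38.0% in replicate 2, so the balance of the forms was close in both libraries. The forms part after the shared exon at chr1:10297174-10297246 (plus strand), and the next exon lies at chr1:10303163-10308597 for alpha and at chr1:10320043-10320136 for beta. In the junctions, lower case is the end of the shared exon and capitals are the first 30 bases of the exon particular to each form.
KIF1B-alpha: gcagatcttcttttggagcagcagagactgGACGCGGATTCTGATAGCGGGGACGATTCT
KIF1B-beta: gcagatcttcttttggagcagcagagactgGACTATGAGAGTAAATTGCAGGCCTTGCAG

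Other genes with mixed transcripts kept their leader. KIF2A was at 11.5 and 14.99 for the transcript of 4047 bases and at 7.71 and 10.3 for that of 3990 bases. KIFC1 was at 50.7 and 41.9 for a predicted model of 2361 bases and at 13.3 and 15.2 for the transcript of 2706 bases. KIFC3 was at 17.1 and 10.8 for the transcript of 3395 bases and at 8.12 and 10.3 for a model of 3229 bases, so the second held 48.8% of the sum in replicate 2 and 32.2% in replicate 1. KIF13B was led by its transcript of 8766 bases (3.64 and 4.99), KIF16B by that of 5262 bases (1.58 and 1.46) and KIF17 by that of 3968 bases (1.48 and 0.939).

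KIF18B alone had different leaders in the libraries. Its transcript of 4289 bases was at 11.95 in replicate 1 and 7.40 in replicate 2, a model of 4246 bases at 5.23 and 9.19, and a transcript of 4026 bases at 5.54 and 4.64. The gene level was 22.7 and 21.2, while the order of the first pair of forms turned round.

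**Figure D3:**
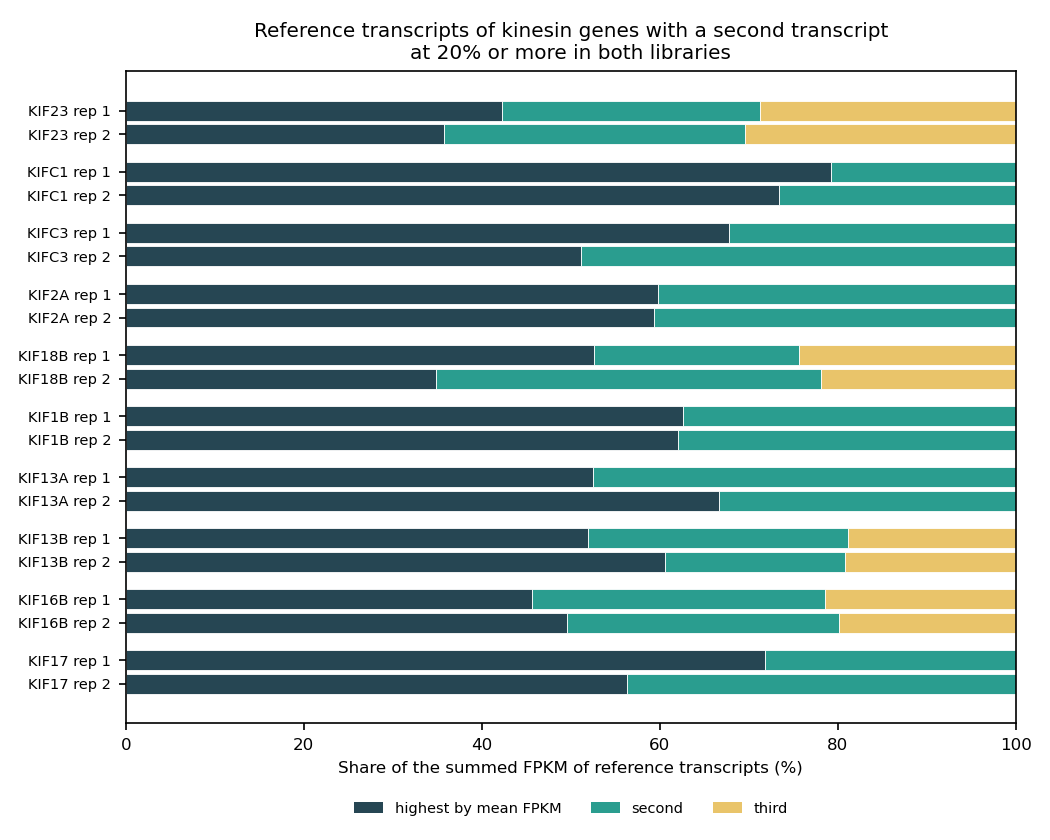
Share of the summed reference transcript FPKM (%) held by the leading, the second and the third transcript of 10 kinesin genes, with 1 bar for each replicate. The bars of KIF1B and KIF2A are nearly alike in both replicates, whereas those of KIF18B and KIFC3 differ.

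In most of the remaining genes with several reference transcripts, 1 form carried most of the reference level. KIF2C (2881 bases), KIF20A (3081 bases), KIF22 (2120 bases), KIF24 (6227 bases) and KIFAP3 (2997 bases) each had their whole reference level on 1 transcript. KIF1C was at 60.4 and 52.8 for its model of 4212 bases, and the transcript of 7917 bases was at 5.19 and 5.28. The leading forms of KIF3A (2310 bases), KIF3C (5431 bases), KIFC2 (3248 bases) and KIF21A (6463 bases) were at 7.74 and 8.01, 6.78 and 7.49, 10.1 and 10.1, and 4.39 and 3.65. A predicted model led in 8 of the 24 genes.

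Minor forms of KIF15 and KIF20B appeared in 1 library only. Beside its leader of 4706 bases (6.29 and 9.14), KIF15 had a transcript of 4837 bases at 2.95 in replicate 1 and 0 in replicate 2, and a model of 3787 bases at 0 in replicate 1 and 2.95 in replicate 2. The KIF20B transcript of 6330 bases was at 10.8 and 13.3, and the form of 6450 bases was at 0 and 1.58. The longer KIF20B form differs by 120 coding bases at chr10:89726293-89726412 (plus strand), which raise the reading frame to 1820 codons from 1780. They are given because they alone tell the form seen in 1 library from the other.
KIF20B exon extension: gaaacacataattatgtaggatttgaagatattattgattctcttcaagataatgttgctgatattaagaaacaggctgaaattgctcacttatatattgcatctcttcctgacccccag

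For 3 of the 31 genes detected in both libraries, a transcript assembled by Cufflinks was the highest of the locus in at least 1 library. Assembled transcripts held 56.9% and 61.7% of the KIF13A level, whose reference forms of 5890 and 7084 bases were at 2.14 and 2.92 and at 1.93 and 1.46. KIF7 had its reference transcript of 4558 bases at 4.62 in replicate 1 and 2.31 in replicate 2, where an assembled transcript of 4556 bases was at 3.02. For KIF27 the assembled share was 60.9% in replicate 1 and 22.8% in replicate 2, and its leading reference form of 3157 bases was at 0.481 and 0.541. Assembled transcripts were above 0 in 13 of the 43 kinesins, some of them under FPKM 1. No such count was made over all named genes. Among the genes not detected in both libraries, an assembled transcript exceeded the highest reference transcript in KIF5A in replicate 2 (0.870 and 0.246), KIF19 in replicate 1 (0.218 and 0.0621) and KIF6 in replicate 1 (0.0593 and 0.0253).

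Between the libraries, none of the 32 kinesins that reached FPKM 1 in either library differed by the rule of a 2-fold ratio of FPKM + 1 with confidence bounds that did not overlap. By this rule 1.23% of all genes with bounds differed. No unadjusted p-value belongs to this count, since 2 libraries of 1 group were described without a test. By bounds alone 25 kinesins differed, 19 higher and 6 lower in replicate 2, and so did 56.2% of all genes, 22.2% higher and 34% lower. The bounds cover estimation within a library and not the spread between libraries.

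The kinesins leaned toward replicate 2. On the log2 scale of FPKM + 1 their median ratio of replicate 2 to replicate 1 was 0.16 (SD 0.22, n = 32), beside a median of -0.04 (SD 0.56) over 12420 genes. The kinesin median was 0.04 without the filter on low values and 0.33 after rescaling to a common FPKM sum, which put the median of all genes at 0.12. Of the 32 kinesins 22 were higher in replicate 2, against 44.1% of all genes. The medians of the role groups were 0.15 for mitosis and cytokinesis, 0.16 for cargo transport, 0.14 for cilia and Hedgehog signalling and 0.20 for the others. The lowest ratios were those of KIF22 (-0.29), KIFC3 (-0.25) and KIF17 (-0.20), and the highest after KIF5A those of KIF20B (0.43), KIF15 (0.35), KIF1B (0.34) and KIF14 (0.34). The proliferation markers were higher in replicate 2 as well, and their part in the ratios was not tested.

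Transcript length and base composition moved with these ratios. The median of the longest reference transcript was 4918.5 bases for the 32 kinesins and 3167 bases for all genes compared. Of kinesins above 5000 bases 13 of 15 were higher in replicate 2, and of the shorter ones 9 of 17. Of those with GC content above 50%, 4 of 13 were higher in replicate 2, and of those at or below 50%, 18 of 19. Over all genes compared 44.1% were higher in replicate 2, and their shares at these cuts of length and GC content were not counted. Across the 32 kinesins the ratio correlated with GC content (Pearson r = -0.65, Spearman rho = -0.67) and with length (0.34 and 0.36). Across all genes the Spearman rho was -0.56 with GC content and 0.43 with length, and the Pearson r was -0.35 and 0.09. These genes share their libraries and are not independent. With the median ratio of genes of like length subtracted, the kinesin median was 0.09. With that of genes of like GC content subtracted it was 0.16.

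**Figure D4:**
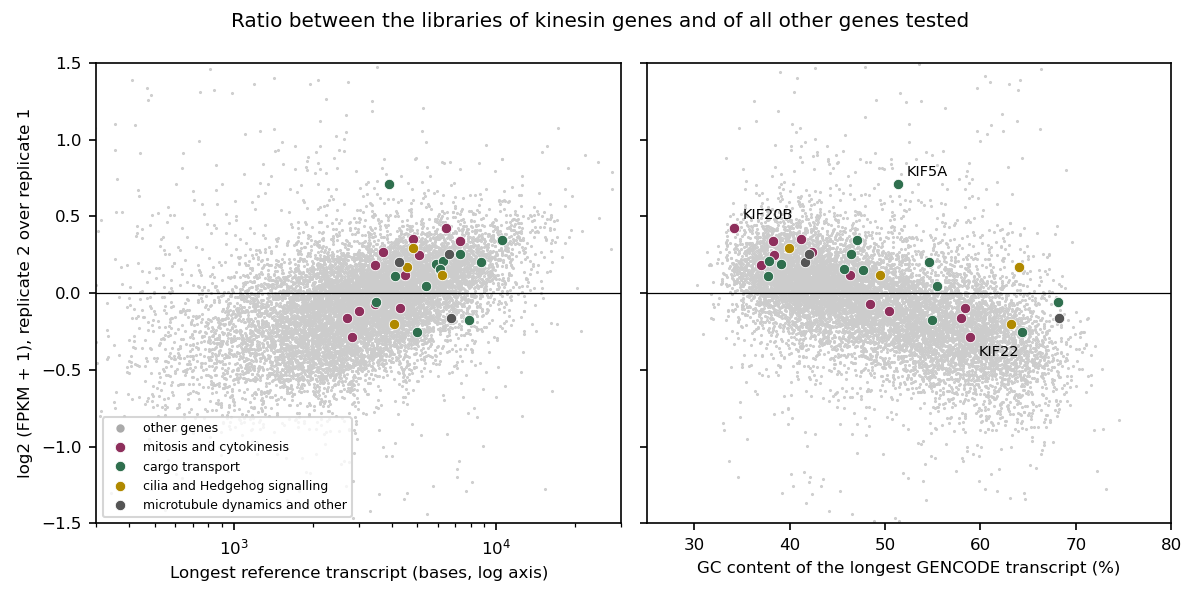
Ratio of replicate 2 to replicate 1 (log2 of FPKM + 1) against the longest reference transcript (bases, log axis) and the GC content of the longest GENCODE transcript (%), for 32 kinesins coloured by role and all other genes in grey, drawn within 1.5 log2 units of 0. Kinesins with low GC content lie mostly above 0 and those with high GC content mostly below, and KIF5A stands highest at 0.71.

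KIF5A had the largest ratio of the family, and its own reference transcript ran the other way. Its locus (GRCh38 chromosome 12, 57550064 to 57585905) was at 2.00 in replicate 2 (bounds 1.65 to 2.35) and 0.838 in replicate 1 (bounds 0.726 to 0.950), a log2 ratio of 0.71 on the FPKM + 1 scale, which understates changes of low genes. The reference transcript of 3897 bases was at 0.246 in replicate 2 and 0.461 in replicate 1. Assembled transcripts held 87.7% of the level in replicate 2 and 45.0% in replicate 1. In replicate 2 they were a form of 5031 bases at 0.570 and short pieces of 754 bases at 0.870 (57583057 to 57583810) and 1807 bases at 0.317 (57584099 to 57585905), both within the last 3 kilobases of the locus. Replicate 1 had 1 assembled form, of 4197 bases, at 0.378. The detection of KIF5A in replicate 2 thus rested on assembled transcripts at 1 end of the locus.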

How the data were processed

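Poly(A) RNA of 2 untreated replicates of 1 line was sequenced, and tables of genes and of transcripts were used for each. Cufflinks 2.2.1, Bowtie2 2.2.3, TopHat2 2.0.13, FastQC 0.11.2 and Trimmomatic 0.32 on GRCh38 were the tools, per the submitters' processing notes. The annotation release and the use of strand were not given in the sources used here; reads of a gene and of one overlapping it on the other strand may be mixed. Per the file headers, the authors deposited FPKM with confidence bounds, and per transcript a coverage signal and a length. Each library was assembled separately beside a RefSeq reference.

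Entries were named by RefSeq accession through an NCBI gene table (GRCh38.p14), then GENCODE 29, then the gene name in the files. Genes with a failed status (44) were left out. A gene's level is its locus FPKM, and every kinesin locus held 1 symbol. Ratios used a pseudocount of 1 and genes that reached FPKM 1 in either library. Ratios of like genes came from 20 bins of length or GC content. Locus starts had 1 added. Exons and codons came from GENCODE 29, and promoter windows from RefSeq. Protein sequences were not used here. KIF4A and KIF4B were compared by shared transcript stretches, a choice made after the design was fixed.

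Each kinesin with FPKM 1 or more in either library was named with both values, and the others by name and value. Transcripts were given for genes whose second form held 20% or more in both libraries. The members, role groups, partner genes and marker lists were chosen with earlier results of these data known. No p-value was computed, as 2 replicates of 1 group hold no contrast. The rule for differing genes and the subtraction of genes of like length were checked on simulated data. For the rule that check used a pseudocount of 0.1, so the pseudocount of 1 used here was not checked. Python 3.11.15, pandas 2.3.3, numpy 2.4.6 and matplotlib 3.10.9 were used.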

Additional observations from a re-analysis of the deposited data

How the results depend on the processing

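No paired analysis was possible because the 2 replicates form 1 group. The number of detected kinesins (31) was 35 at FPKM 0.5, 25 at FPKM 5, 39 with a lower bound above 0, 30 with summed reference transcripts, and 31 to 32 in single libraries. The gene lost with summed reference transcripts was KIF27. The count of differing kinesins (0) was 1, KIF5A, with a pseudocount of 0.1, and 25 by bounds without a fold, an alternative chosen after seeing the data, as was the subtraction of genes of like GC content. It was 0 without the filter on low values, with rescaled FPKM, with summed reference transcripts and without overlapping genes. The median ratio (0.16) was above 0 under all 6 alternatives run, from 0.04 without the filter to 0.33 with FPKM rescaled to a common sum, which moved the median of all genes to 0.12.

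With summed reference transcripts in place of the locus FPKM, the median level was 7.16, against 8.40, for all kinesins, 8.77, against 10.4, for cargo transport, 0.908, against 1.48, for cilia and Hedgehog signalling, and 0.652, against 0.870, for the remaining group. This choice leaves out assembled transcripts. For mitosis and cytokinesis the median was 23.9 both ways. Of the 43 single levels 11 moved by more than the spread between replicates. In single libraries the medians ranged from 7.58 to 9.09 for all kinesins, 23.1 to 24.6 for mitosis and cytokinesis, 9.45 to 11.4 for cargo transport, 1.23 to 1.67 for cilia and 0.779 to 0.960 for the rest. The leading transcript was the same in 23 of 24 genes from replicate 2 alone, in 24 from replicate 1 alone, and in 21 with assembled transcripts added. The absolute depth is unknown, so values far under FPKM 1 rest on few fragments that cannot be counted.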
